A study of Rattus norvegicus with 36 samples.

Results

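The 5 rat mammary cancers that arose after methylnitrosourea (MNU) and carried a mutated H-ras gene were compared with 3 normal mammary tissues. These 8 arrays were chosen by their labels alone, from 36 arrays of a study of mammary cancers with different causes. By those labels, the other cancers were spontaneous or followed gamma rays (1 Gy), MNU, PhIP, or rays combined with either chemical. Group names below use radiation for the gamma rays. All tissues came from female Sprague-Dawley rats. The rats behind the 5 MNU H-ras mutated cancers received 40 mg/kg of MNU at 7 weeks of age and no radiation, and the normal tissues came from untreated rats. Every rat was moved at 9 weeks to a diet with 23.5% corn oil, so the fat-rich diet was shared by cancers and controls. Because the controls had neither MNU nor a cancer, effects of the chemical and of the cancer cannot be told apart here. The labels do not say whether each tissue came from a different rat, nor how old the rats were when tissue was taken. Each array was therefore treated as a separate sample, and the p-values speak of samples rather than rats. The error behind each p-value and SE was estimated from the scatter within groups across all 36 arrays, not from these 8 alone. The H-ras status comes from the labels; Hras had no named probe set, and its own transcript was not analysed here.

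MNU transfers methyl groups to DNA bases. Methylated guanine that escapes repair pairs with thymine, and in rat mammary gland the resulting base change often hits the H-ras gene and locks the RAS protein in its active state. Active RAS signals through the RAF, MEK and ERK kinases, which switch on growth genes and also inhibitors that damp the same route. The normal mammary gland is a thin tree of luminal and basal epithelial cells set in a large pad of fat, while a mammary carcinoma is mostly epithelium.

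Values are log2 of an array intensity after a small constant was added, where the constant alone reads as 5.42 and the filter on weak genes lies at 7.397. Cancers 1 to 5 and normal tissues 1 to 3 are named by the replicate numbers of the labels. A change is the mean of the cancers minus the mean of normal tissue ± SE, and a gene is said to have risen or fallen where the limma test over all genes gave an adjusted p under 0.05. Across genes, arrays correlated at 0.926 to 0.970 within the cancers, 0.950 to 0.955 within normal tissue, and 0.820 to 0.878 between them. Cancer 1 had a 3'/5' hexokinase signal ratio of 4.66, where the other 7 arrays lay between 1.88 and 3.41. Its ratios for actin (1.26) and Gapdh (1.11) were not the highest, which were those of normal tissue 3 (1.71 and 1.23); such ratios rise when RNA is shortened. Normal tissue 3 reached the highest intensity, 32544 against 12282 to 18771 on the other 7 arrays. The epithelial markers Krt8 (12.88 to 13.45 in the cancers, 12.49 to 12.95 in normal tissue) and Epcam (13.33 to 13.58 and 13.31 to 13.95) were near the top of the scale in every array of both groups. Krt1, a keratin of skin, stayed at 6.86 to 7.29 and 6.88 to 7.72, and none of 4 measured skin genes and 3 measured red blood cell genes passed the test (median changes −0.07 and 0.73).

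Of 11772 genes tested, 3423 passed the threshold, which is 29.1% of genes. They comprised 1790 that rose (15.2%) and 1633 that fell (13.9%), and 1134 changed at least 2-fold, 536 upward and 598 downward. The median change over all genes was 0.04. In 3565 genes (30.3%) no cancer overlapped any normal tissue, with all cancers above in 1890 (16.1%) and all below in 1675 (14.2%). Leaving out 1 array at a time gave 2494 to 3279 genes past the threshold.

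**Figure D1:**
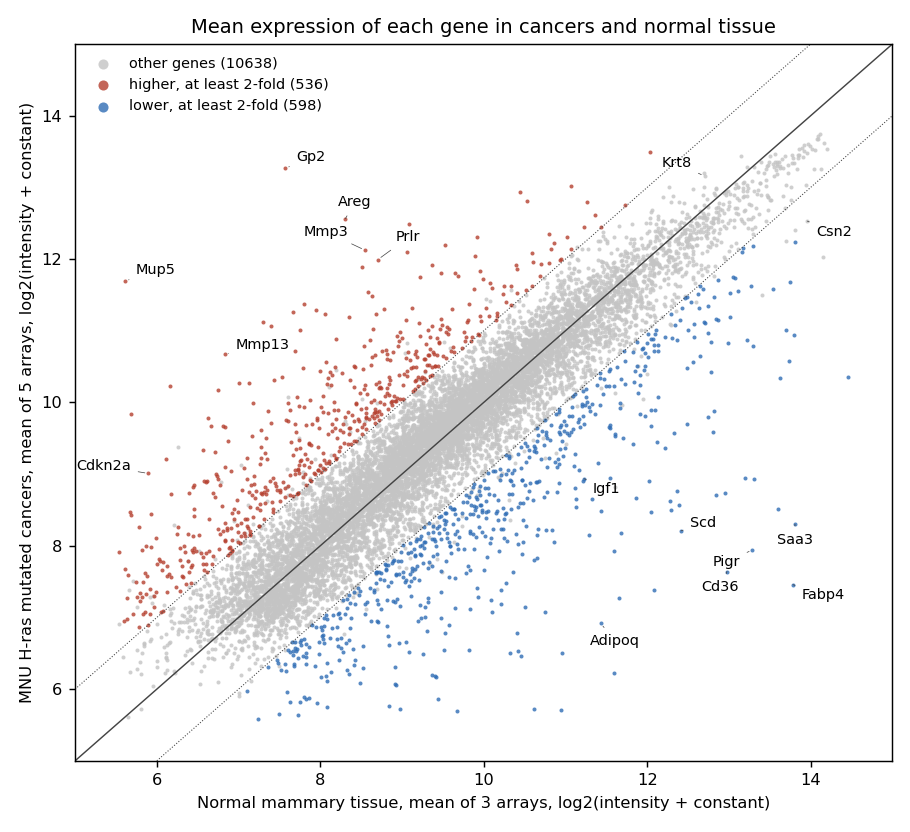
Each point is 1 of 11772 genes, placed by its mean log2(intensity + constant) in the 3 normal tissues (horizontal) and the 5 MNU H-ras mutated cancers (vertical). The solid line marks equal means and the dotted lines a 2-fold difference; 536 genes past the threshold lie above the upper line and 598 below the lower one, with Mup5 and Gp2 farthest above and Fabp4 farthest below among the named genes.

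The largest rises joined secreted proteins, matrix proteases and a growth factor. Mup5, of the major urinary protein family of lipid carriers, measured 11.66, 12.93, 11.24, 12.12 and 10.51 in cancers 1 to 5 and 5.44, 5.50 and 5.90 in normal tissues 1 to 3. Every cancer lay far above the highest normal tissue, although this probe set can bind several members of the family. Its change was 6.08 ± 0.94 (adjusted p = 2.02e-05). Gp2, a glycoprotein of secretory granule membranes, measured 13.56, 13.41, 13.42, 12.45 and 13.48 in cancers 1 to 5 and 7.65, 7.42 and 7.65 in normal tissues 1 to 3. Cancers 1, 2, 3 and 5 sat together near the top of the scale and cancer 4 was lowest, still far above every normal tissue. The change was 5.69 ± 0.62 (adjusted p = 9.12e-08). Areg, which encodes the EGF receptor ligand amphiregulin, measured 12.34, 12.86, 11.83, 13.22 and 12.57 in cancers 1 to 5 and 8.21, 7.98 and 8.73 in normal tissues 1 to 3, with no overlap and a change of 4.26 ± 0.36 (adjusted p = 5.96e-10).

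The other large rises covered several kinds of protein. Cell surface and junction genes were Gpr37, an orphan receptor (3.43 ± 0.25), Dsp, the desmosome protein desmoplakin (3.39 ± 0.25), and Tmem150c, a membrane protein (3.37 ± 0.56). Matrix and secreted proteins were Col2a1, the main collagen of cartilage (3.60 ± 0.73), Vcan, the proteoglycan versican (3.26 ± 0.33), and Sema3b, a secreted semaphorin (3.67 ± 0.51). Regulators of transcription were Tfap2b (3.57 ± 0.55), Id4, which blocks helix-loop-helix factors (3.18 ± 0.35), and the homeobox gene Msx2 (3.15 ± 0.55). Msx2 had 3 probe sets, of which 2 rose and 1 fell, so its direction is uncertain. Prag1, a pseudokinase scaffold, rose by 3.34 ± 0.45, Gadl1, a decarboxylase, by 3.25 ± 0.43, and Nxpe2 and the uncharacterised LOC102552398 by 4.06 ± 0.39 and 3.83 ± 0.73. Mast cell protease Mcpt10 rose by 4.15 ± 1.31 with a wide spread (12.58, 9.64, 11.20, 8.62 and 7.16 in cancers 1 to 5). The call was lost for Mcpt10 without cancer 1 or normal tissue 3 (adjusted p = 0.0523 to 0.0591).

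The largest falls included genes of fat cells, an antibody carrier, an acute phase gene and a chemokine. Fabp4, a fat cell protein that binds fatty acids, measured 6.51, 7.44, 8.39, 6.93 and 8.01 in cancers 1 to 5 and 13.77, 13.55 and 14.03 in normal tissues 1 to 3. All cancers lay below all normal tissues, and the change was −6.33 ± 0.54 (adjusted p = 7.03e-10). Pigr, the receptor that carries antibodies into milk, measured 8.01, 7.75, 7.41, 8.30 and 8.26 in cancers 1 to 5 and 13.20, 13.41 and 13.25 in normal tissues 1 to 3, a change of −5.34 ± 0.80 (adjusted p = 1.44e-05). Both groups were tight and lay far apart. Other falls were those of Saa3, an acute phase protein (−5.51), Aqp3, a water and glycerol channel (−5.37), and the lymphoid chemokine Ccl21 (−4.45). In bulk tissue, fewer cells of a type and less RNA per cell cannot be told apart. Of the 20 largest rises and 20 largest falls, 28 genes rested on 1 probe set, 11 on several that moved the same way, and Msx2 on probe sets that disagreed. In 9 of these 40 genes the normal mean, and in 9 others the cancer mean, lay under the filter level, where the added constant shrinks the fold.

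**Figure D2:**
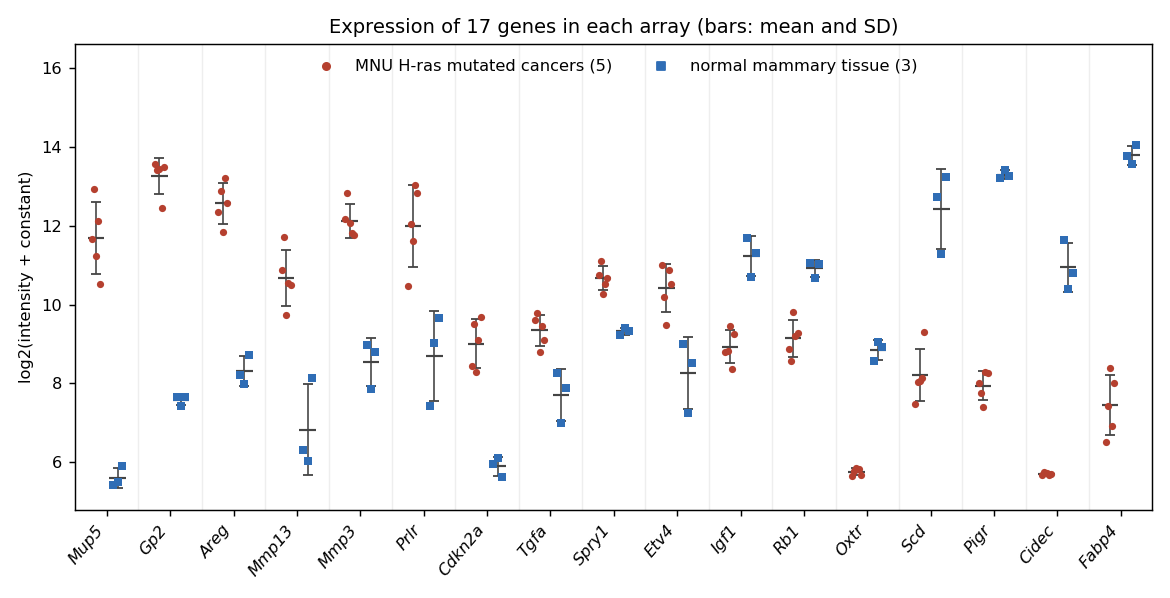
Log2(intensity + constant) of 17 genes on each array, with circles for the 5 MNU H-ras mutated cancers and squares for the 3 normal tissues; horizontal lines are group means and bars 1 SD. In the 10 genes on the left all cancers lie above all normal tissues, and in the 7 on the right all lie below.

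Genes that feed RAS from the cell surface moved in both directions. Of 14 measured genes of the EGF family and its receptors, 4 rose (28.6%) and 3 fell (21.4%), beside 15.2% and 13.9% of all genes. The median change was 0.54. Besides Areg, the ligand Tgfa measured 9.61, 9.79, 8.80, 9.45 and 9.10 in cancers 1 to 5 and 8.26, 6.99 and 7.88 in normal tissues 1 to 3. Its lowest cancer lay above its highest normal tissue, and the change was 1.64 ± 0.27 (adjusted p = 5.08e-05). The neuregulin Nrg2, a ligand of the ERBB3 and ERBB4 receptors, rose by 1.75 ± 0.43, and the receptor Erbb2 rose by 1.01 ± 0.25. Egfr measured 10.43, 10.42, 10.78, 10.95 and 10.45 in cancers 1 to 5 and 9.93, 10.38 and 10.15 in normal tissues 1 to 3. The cancers were all higher by a small margin, and the change of 0.45 ± 0.25 did not pass (adjusted p = 0.185); Erbb3 was at 0.29 ± 0.23. The falls were in the ligand Hbegf (−0.91 ± 0.24), Lrig1, which drives the receptors to degradation (−0.69 ± 0.20), and Adam17, the protease that sheds ligands (−0.48 ± 0.14). These 3 calls rested on single normal tissues and were lost for Hbegf without normal tissue 3 (adjusted p = 0.0633), Lrig1 without normal tissue 1 (adjusted p = 0.147, with a change of −0.40 without normal tissue 1) and Adam17 without normal tissue 1 or 3 (adjusted p = 0.0765 to 0.122, with a change of −0.32 without normal tissue 1). Without normal tissue 2 the change of Adam17 was −0.73 (adjusted p = 0.000338).

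The regulators that load or empty RAS, and the kinases below it, passed at shares near those of all genes. Of 21 measured, 4 rose and 4 fell (19.05% each, near the 15.2% and 13.9% of all genes), with a median of 0.01 that changed sign between settings. The largest rise was that of Rasgrf1, an exchange factor that loads RAS, which measured 8.82, 9.79, 8.25, 9.11 and 9.52 in cancers 1 to 5 and 6.93, 5.68 and 7.90 in normal tissues 1 to 3. Every cancer exceeded the highest normal tissue, and the change was 2.26 ± 0.46 (adjusted p = 0.000474). Nras, the sister gene of Hras, measured 9.92, 10.46, 10.39, 10.56 and 11.01 in cancers 1 to 5 and 11.37, 11.78 and 11.50 in normal tissues 1 to 3. It was lower in every cancer than in every normal tissue, with a change of −1.08 ± 0.25 (adjusted p = 0.00192). The remaining calls were small, namely the exchange factors Sos1 (0.56) and Sos2 (0.34), the GTPase activator Rasa1 (0.42), and, downward, Rasgrp2 (−0.88), Rras2 (−0.48) and Gab1 (−0.37). Map2k1 and Map2k2, the MEK kinases, were at 0.04 ± 0.13 and 0.25 ± 0.14, neither past the threshold. Single arrays decided several of these calls, which were lost for Sos1 without cancer 1 or normal tissue 1 (adjusted p = 0.0523 to 0.0633), Rasa1 without cancer 1, 3 or 4 or normal tissue 2 or 3 (adjusted p = 0.0604 to 0.161), Rasgrp2 without cancer 1, 3 or 4 or normal tissue 1, 2 or 3 (adjusted p = 0.051 to 0.0854), Rras2 without normal tissue 2 or 3 (adjusted p = 0.0574 to 0.0629) and Gab1 without cancer 2 or normal tissue 2 (adjusted p = 0.0688 to 0.194). A further probe set of Sos1 had a change of opposite sign that did not pass.

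Genes switched on by ERK, and the inhibitors among them, rose where they passed the test. Of 19 measured, 10 rose, beside 15.2% of all genes, and none fell, and the median change was 0.54; the count of rises with 1 array left out ran from 7 (without normal tissue 2) to 11 (without cancer 3), and it was 5 with the 8 arrays fitted alone with the replicate block. Spry1, a sprouty protein that damps signalling from receptors to RAS, measured 10.74, 11.11, 10.28, 10.52 and 10.67 in cancers 1 to 5 and 9.23, 9.41 and 9.32 in normal tissues 1 to 3. The groups did not overlap and the change was 1.34 ± 0.16 (adjusted p = 3.57e-07). The transcription factor Etv4 measured 10.99, 10.19, 9.49, 10.88 and 10.53 in cancers 1 to 5 and 9.01, 7.26 and 8.52 in normal tissues 1 to 3, again without overlap, a change of 2.15 ± 0.47 (adjusted p = 0.00108). Etv5, of the same PEA3 family, rose by 1.81 ± 0.39 in its brighter probe set, while its other probe set had a change of opposite sign that did not pass. The kinase receptor Epha2 rose by 1.66 ± 0.32, the cyclin Ccnd1 by 1.21 ± 0.28, Spry2 by 1.03 ± 0.25 and the ERK phosphatase Dusp5 by 0.94 ± 0.19. Smaller rises were those of Spry4 (0.54), Spred3 (0.53) and Dusp7 (0.51), with calls lost for Spry4 without normal tissue 2 (adjusted p = 0.0503), Spred3 without normal tissue 2 (adjusted p = 0.13, with a change of 0.31 without normal tissue 2) and Dusp7 without cancer 2, 4 or 5 or normal tissue 2 or 3 (adjusted p = 0.0583 to 0.241).

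Other ERK targets did not pass the test. Dusp6, a phosphatase that acts on ERK itself, measured 9.53, 12.72, 12.16, 13.07 and 12.64 in cancers 1 to 5 and 11.45, 11.88 and 11.97 in normal tissues 1 to 3. Cancer 1 lay below all normal tissues and the other 4 cancers above them, and the change was 0.26 ± 0.54 (adjusted p = 0.748), or 0.88 without cancer 1 (adjusted p = 0.109). Of its 3 probe sets 1 of the weaker ones rose, and with the mean of probe sets Dusp6 rose by 0.86 (adjusted p = 0.0281). The level in cancer 1 was also below that of every other cancer in the series (10.73 to 13.23), and the part of that array's high hexokinase ratio in it was not tested. The immediate-early gene Egr1 was at −0.33 ± 0.23, the AP-1 member Fosl1 at −0.31 ± 0.20 and Myc at 0.18 ± 0.35, none past the threshold. In the lipid kinase branch below RAS, 3 of 15 genes rose and none fell (median 0.002, with a sign that changed between settings). Beside 15.2% of all genes, this is a share of 20.0%. The rises were Pik3ca (0.73), Pdk1 (0.66) and Tsc2 (0.32). Pdk1 is the symbol of a pyruvate dehydrogenase kinase of mitochondria, which the glycolysis list holds too, so 2 of the 3 belong to this branch by function. A further probe set of Pdk1 had a change of opposite sign that did not pass, and the Tsc2 call was lost for Tsc2 without cancer 1 or normal tissue 2 or 3 (adjusted p = 0.0671 to 0.0971). Pik3r1, a regulatory subunit of the same kinase, measured 8.01, 5.72, 10.47, 10.47 and 9.44 in cancers 1 to 5 and 11.55, 11.30 and 11.96 in normal tissues 1 to 3. Its cancers all lay below normal tissue and ranged widely, and the change of −2.78 ± 1.15 did not pass (adjusted p = 0.0673). Without cancer 3 or without cancer 4 it did (adjusted p = 0.047 and 0.0468).

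Hormone receptors and the signals they release rose in part. Of 15 measured genes, 5 rose (33.3%) and 3 fell (20%), beside 15.2% and 13.9% of all genes. The median was 0.07 and changed sign between settings. Prlr, the prolactin receptor, measured 10.46, 12.03, 11.61, 13.03 and 12.83 in cancers 1 to 5 and 7.44, 9.03 and 9.65 in normal tissues 1 to 3. Cancers 4 and 5 were highest and cancer 1 lowest, with no overlap, and the change was 3.29 ± 0.54 (adjusted p = 3.92e-05). The progesterone receptor Pgr rose by 1.87 ± 0.54, a call lost for Pgr without normal tissue 2 (adjusted p = 0.0612), and Wnt4, a progesterone-driven signal between epithelial cells, rose by 2.53 ± 0.45. Calca, which encodes calcitonin and a related peptide, measured 7.70, 9.37, 7.13, 8.91 and 9.26 in cancers 1 to 5 and 5.61, 5.69 and 5.70 in normal tissues 1 to 3, from near the added constant in every normal tissue, a change of 2.81 ± 0.57 (adjusted p = 0.00052). Esr1, the oestrogen receptor, was weak in all arrays (6.88 to 7.53 in the cancers, 5.96 to 7.20 in normal tissue) and not called (0.62 ± 0.43). The falls were the growth hormone receptor Ghr (−2.25 ± 0.32), Tnfrsf11a, the RANK receptor (−1.85 ± 0.34), and Stat5a, which relays prolactin signals (−0.90 ± 0.18). Tnfsf11, the ligand of RANK, was weak in all 8 arrays (5.66 to 7.03 in the cancers, 5.84 to 6.62 in normal tissue) and was at 0.00 ± 0.98.

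Proteases that cut the extracellular matrix showed large rises beside falls. Of 25 measured proteases and inhibitors, 6 rose and 6 fell (24% each, beside 15.2% and 13.9% of all genes). The median was −0.54. Mmp13, a collagenase, measured 10.88, 11.71, 9.73, 10.54 and 10.50 in cancers 1 to 5 and 6.32, 6.03 and 8.14 in normal tissues 1 to 3. Every cancer lay above every normal tissue, with cancer 2 highest, and the change was 3.84 ± 0.73 (adjusted p = 0.000224). Mmp3, a stromelysin that also activates collagenases, measured 12.17, 12.83, 12.05, 11.81 and 11.76 in cancers 1 to 5 and 8.97, 7.86 and 8.80 in normal tissues 1 to 3, a change of 3.58 ± 0.66 (adjusted p = 0.000155). Adamts1 rose by 1.71 ± 0.40, and the membrane-bound Mmp15 and Mmp14 by 1.52 ± 0.24 and 0.92 ± 0.32. Among the falls, Adamts5, which degrades aggrecan, changed by −1.51 ± 0.19 and the macrophage elastase Mmp12 by −1.42 ± 0.38. Further falls were the urokinase receptor Plaur (−0.75) and the metalloproteinase inhibitors Timp2 (−0.75) and Timp3 (−1.04). Mmp7, a matrilysin, varied in both groups (7.23 to 9.37 and 6.15 to 9.70) and was at 0.11 ± 1.02. Calls were lost for Mmp14 without cancer 2, 3 or 4 or normal tissue 1 or 2 (adjusted p = 0.0519 to 0.245, with a change of 0.58 without normal tissue 2), Plaur without normal tissue 3 (adjusted p = 0.0512), Timp2 without cancer 2 or 4 or normal tissue 1 or 3 (adjusted p = 0.0584 to 0.11) and Timp3 without cancer 1 or normal tissue 1 (adjusted p = 0.0595 to 0.115); without normal tissue 3 the change of Mmp14 was 1.51 (adjusted p = 0.000583).

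Mmp13, Mmp3, Mmp12 and Mmp7 lie in 1 gene cluster on chromosome 8 and each carries 1 AP-1 motif before its start. AP-1 is the FOS and JUN factor pair, which responds to ERK. The sequences are shown because the cluster holds both the largest protease rises and a fall. They are the 120 bases before each gene's start on the plus strand, from RefSeq on build GRCr8, at chr8:12782709-12782828, chr8:12925161-12925280, chr8:12866532-12866651 and chr8:13132923-13133042 in that order. Capitals mark the motif TGANTCA.
Mmp13: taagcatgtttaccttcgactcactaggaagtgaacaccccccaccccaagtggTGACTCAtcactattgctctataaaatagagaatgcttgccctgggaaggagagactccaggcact
Mmp3: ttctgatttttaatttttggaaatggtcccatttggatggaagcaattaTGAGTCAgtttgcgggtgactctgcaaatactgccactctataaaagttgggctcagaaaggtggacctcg
Mmp12: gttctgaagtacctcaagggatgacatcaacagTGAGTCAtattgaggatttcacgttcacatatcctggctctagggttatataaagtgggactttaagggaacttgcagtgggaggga
Mmp7: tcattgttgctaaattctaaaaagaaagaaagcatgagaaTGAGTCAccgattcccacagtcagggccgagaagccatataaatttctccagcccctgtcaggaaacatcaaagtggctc

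The motif begins 66 bases before the start of Mmp13, 71 before Mmp3, 87 before Mmp12 and 80 before Mmp7. Mmp13 and Mmp3 rose, Mmp12 fell and Mmp7 did not pass the test, so the 4 genes that share the motif did not move together. TGANTCA was searched on both strands (it is its own reverse complement) in the 250 bases before each start. It occurred in 2122 of 33469 promoters (6.34%). Among tested genes with 1 start in the table it occurred in 422 of 9126 (4.62%), in 25 of 377 that rose at least 2-fold (6.63%) and in 35 of 440 that fell at least 2-fold (7.95%). Of 18 measured proteases and inhibitors with 1 start 5 held it (27.8%), and of 11 such genes of the EGF family none did. A match is a run of letters and was not tested as a binding site.

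Among genes of the luminal lining, the cells next to the milk duct, more rose than fell. Of 23 measured, 9 rose and 3 fell, with a median of 0.47; with 1 array left out the count of rises ran from 7 (without normal tissue 2) to 11 (without normal tissue 3). The transcription factors Gata3 and Spdef rose by 0.84 ± 0.20 and 1.83 ± 0.46, the junction genes Cldn7 and Cdh1 by 1.51 ± 0.26 and 0.47 ± 0.14, and the stem cell marker Prom1 by 1.69 ± 0.40. The keratin Krt7 rose by 2.06 ± 0.52, a call lost for Krt7 without normal tissue 2 (adjusted p = 0.0942, with a change of 1.18 without normal tissue 2). Cldn7 was 0.97 (adjusted p = 0.0023) without normal tissue 1. Krt8, Krt18 and Krt19, the core luminal keratins, were slightly higher at 0.45 ± 0.20, 0.42 ± 0.17 and 0.50 ± 0.20, and none passed (adjusted p = 0.0866, 0.0616 and 0.0545). Krt18 passed without normal tissue 3 and Krt19 without cancer 3 (adjusted p = 0.0452 and adjusted p = 0.0385), and all 3 passed after quantile normalization (changes of 0.82, 0.73 and 0.84, adjusted p = 0.00695, 0.00165 and 0.00713). Epcam was at −0.09 ± 0.11. The falls were Elf5, the regulator of milk-producing alveoli (−2.37 ± 0.79), the mucin Muc1 (−1.51 ± 0.33) and Cd24 (−0.91 ± 0.18), with the Elf5 call lost for Elf5 without cancer 1 or 2 or normal tissue 2 or 3 (adjusted p = 0.0553 to 0.103).

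Markers of the outer, basal layer rose in part. Of 15 basal and myoepithelial genes, 4 rose (26.7%) and 1 fell (6.7%), beside 15.2% and 13.9% of all genes (median 0.08). The basal regulator Tp63 rose by 1.38 ± 0.28, the cadherin Cdh3 by 1.42 ± 0.30, and the keratins Krt5 and Krt15 by 0.67 ± 0.18 and 1.14 ± 0.37. Krt14 overlapped between the groups and was at −0.03 ± 0.44. Oxtr, the oxytocin receptor through which myoepithelial cells eject milk, measured 5.67, 5.79, 5.85, 5.83 and 5.68 in cancers 1 to 5 and 8.57, 9.04 and 8.93 in normal tissues 1 to 3. The cancers sat close to the added constant, so the change of −3.08 ± 0.27 (adjusted p = 1.25e-09) understates the fold. The Krt15 call was lost for Krt15 without cancer 1 or normal tissue 2 or 3 (adjusted p = 0.0509 to 0.0995).

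Milk genes fell in part, while the caseins did not pass the test. Of 11 measured, none rose and 7 fell (63.6%, beside 13.9% of all genes), with a median of −2.07. The falls include Lpl (−2.51), which the fat cell list holds too, and the lipid droplet gene Plin2 (−1.57). With 1 array left out the falls ran from 4 (without normal tissue 1 or 3) to 7 (without cancer 4). Lpo, lactoperoxidase, measured 6.96, 7.62, 6.71, 7.21 and 7.21 in cancers 1 to 5 and 10.21, 11.22 and 10.06 in normal tissues 1 to 3, a change of −3.35 ± 0.78 (adjusted p = 0.00186), and Xdh, a milk fat globule enzyme, fell by 2.07. Wap, a whey protein, measured 11.31, 11.59, 7.97, 11.29 and 10.69 in cancers 1 to 5 and 13.43, 13.42 and 14.36 in normal tissues 1 to 3. Cancer 3 stood far below the other 4 cancers, and the change was −3.17 ± 1.14 (adjusted p = 0.0367). Glycam1, a milk mucin, ranged from 7.23 to 13.13 in the cancers against 14.19 to 14.99 in normal tissue, a change of −4.11 ± 1.55 (adjusted p = 0.0454). Both calls turned on single arrays: they were lost for Wap without cancer 3 or normal tissue 1, 2 or 3 (adjusted p = 0.0664 to 0.128) and Glycam1 without cancer 1, 3 or 5 or normal tissue 1, 2 or 3 (adjusted p = 0.0698 to 0.131). The casein Csn2 measured 13.25, 13.48, 8.98, 13.60 and 13.34 in cancers 1 to 5 and 13.69, 13.64 and 14.54 in normal tissues 1 to 3. Only cancer 3 was far below normal tissue, and neither Csn2 (−1.43 ± 0.79) nor Csn1s1 (−0.78), Csn3 (−0.68) and Lalba (−0.91) passed. Each cancer lay below each normal tissue in all 4 genes, as was so in 14.2% of all genes. For Csn2 the margin was narrow (13.60 in cancer 4 against 13.64 in normal tissue 2). Apart from Csn2 in cancer 3 these 4 genes read near the top of each array, and normal tissue 3, whose top was highest, also gave their highest values.

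The fat cell genes fell almost as a whole. Of 27 measured adipocyte genes 24 fell (88.9%, beside 13.9% of all genes) and none rose, with a median change of −2.84. The count was 23 without normal tissue 2 and 24 without any other 1 of the 8 arrays. Lipid droplet genes included Cidec, which measured 5.68, 5.76, 5.74, 5.68 and 5.72 in cancers 1 to 5 and 11.63, 10.39 and 10.80 in normal tissues 1 to 3. In all cancers it was near the added constant, and the change was −5.23 ± 0.22 (adjusted p = 5.74e-17). Plin1, which coats the droplet, fell by 4.39. The fat hormones Adipoq and Lep fell (−4.51 and −3.25), with Lep at 5.60 to 5.84 in the cancers, and the retinol carrier Rbp4 fell by 3.97. Genes of fatty acid uptake and activation fell likewise, Cd36 (−5.34) and Acsl1 (−4.38), as did the glycerol channel Aqp7 (−2.79) and Pck1, which makes the glycerol backbone (−4.69). Further falls were those of Car3, a carbonic anhydrase of fat (−5.09), Angptl4, an inhibitor of lipoprotein lipase (−4.25), and Pdk4, which spares glucose (−4.22). The regulators Pparg and Cebpa fell (−1.63 and −1.51). The 3 measured genes of the list that did not fall were Agpat2 (−0.01), Dgat2 (−0.96) and Lipe (−0.28). Cidea, active in brown fat and in milk-fat secretion, fell by 3.19 as the only 1 of 4 brown fat genes (25%, beside 13.9%).

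Enzymes that build fatty acids, which both fat cells and secreting epithelium use, fell in part. Of 17 measured, 11 fell (64.7%) and 2 rose (11.8%), beside 13.9% and 15.2% of all genes, with a median of −1.16. Scd, the main desaturase, measured 7.49, 8.05, 8.07, 8.13 and 9.30 in cancers 1 to 5 and 12.73, 11.28 and 13.23 in normal tissues 1 to 3. The groups did not overlap, cancer 5 was highest of the cancers, and the change was −4.21 ± 0.68 (adjusted p = 3.71e-05). Scd2, the isoform of brain and of other tissues, went the other way and measured 12.98, 13.05, 12.88, 12.85 and 12.90 in cancers 1 to 5 and 11.45, 9.76 and 10.12 in normal tissues 1 to 3, a change of 2.49 ± 0.21 (adjusted p = 9.34e-10). All 4 of its probe sets rose. The elongase Elovl6 also rose (1.43 ± 0.28). The falls included Thrsp, a lipogenic cofactor (−2.85), the carboxylase Acaca (−1.37), malic enzyme Me1 (−1.99), the regulator Srebf1 (−1.16) and the synthase Fasn (−1.02). The Fasn call was lost for Fasn without normal tissue 3 (adjusted p = 0.0688). In cholesterol synthesis 1 of 14 genes rose (7.1%, beside 15.2% of all genes), the epoxidase Sqle (2.13 ± 0.52). The 2 falls (14.3%, near the 13.9% of all genes) were Dhcr7 (−0.82) and Insig1 (−0.87), both lost for single arrays. Dhcr7 was lost without cancer 4 or 5 or normal tissue 2 or 3 (adjusted p = 0.0713 to 0.178). Insig1 was lost without cancer 1, 3, 4 or 5 or normal tissue 1 or 3 (adjusted p = 0.0549 to 0.211).

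Markers of the vessel lining fell. Of 15 endothelial genes 11 fell (73.3%, beside 13.9% of all genes) and none rose, with a median of −0.996. With 1 array left out the count ran from 7 (without normal tissue 1) to 13 (without cancer 5). The transcription factor Sox17 measured 7.39, 7.09, 8.21, 7.37 and 8.27 in cancers 1 to 5 and 9.83, 9.78 and 9.90 in normal tissues 1 to 3, a change of −2.17 ± 0.34 (adjusted p = 2e-05) without overlap, and cancers 3 and 5 were the highest of the cancers. The receptors Tek and Kdr fell (−1.64 and −0.996) and the endothelial claudin Cldn5 (−1.60). Kdr and Cldn5 were lost for Kdr without normal tissue 1 or 2 (adjusted p = 0.0512 to 0.052) and Cldn5 without normal tissue 1 (adjusted p = 0.0506). Pecam1 was at −0.70 ± 0.28 (adjusted p = 0.059), past the threshold without cancer 5 (adjusted p = 0.015), and Flt1, the VEGF receptor whose soluble form traps VEGF, was at 0.60 ± 0.41. Few fibroblast genes passed: of 22, 1 rose (4.55%, beside 15.2% of all genes), the collagen Col5a2 (0.72 ± 0.18), and 1 fell (4.55%, beside 13.9%), the matrix protein Dpt (−3.60 ± 0.49). With the 8 arrays fitted alone 7 fell. Col1a1 and Col3a1 were at −0.55 ± 0.51 and −0.88 ± 0.47, and the list median was −0.56.

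Among immune cells, macrophage genes showed the most falls. Of 17 measured 10 fell (58.8%, beside 13.9% of all genes) and none rose (median −0.82). The count of falls ran from 4 (without normal tissue 3) to 10 (without cancer 1 or 3) with 1 array left out. Among the falls were Gpnmb (−1.72), the lysosomal Cd68 (−1.496) and the receptor Csf1r (−0.82), while the complement gene C1qa was at −0.41 ± 0.36. Of 18 T and NK cell genes, 3 fell (16.7%, near the 13.9% of all genes), Klrb1a (−1.15), Cd8a (−1.10) and Il7r (−0.80). Their count ran from 1 (without cancer 1 or normal tissue 2 or 3) to 5 (without cancer 3) with 1 array left out and was 6 after quantile normalization and 6 with the 8 arrays fitted alone. Of 8 B and plasma cell genes 3 fell (37.5%, beside 13.9% of all genes). Jchain, which joins secreted antibodies, measured 7.002, 7.39, 9.68, 9.27 and 9.52 in cancers 1 to 5 and 12.23, 12.33 and 12.62 in normal tissues 1 to 3, lowest in cancers 1 and 2, a change of −3.82 ± 0.96 (adjusted p = 0.00358). The others were the plasma cell genes Mzb1 (−1.08) and Xbp1 (−0.60), of which Xbp1 also serves secreting epithelium. Calls were lost for Csf1r without cancer 2 or 4 or normal tissue 1 or 3 (adjusted p = 0.0538 to 0.105), Cd8a without cancer 1 or normal tissue 2 or 3 (adjusted p = 0.0615 to 0.12), Il7r without cancer 1, 2 or 4 or normal tissue 2 or 3 (adjusted p = 0.0534 to 0.15), Mzb1 without normal tissue 1 or 3 (adjusted p = 0.0592 to 0.0608) and Xbp1 without normal tissue 2 or 3 (adjusted p = 0.0573 to 0.0577). Of 25 chemokines and their receptors 7 fell (28%, beside 13.9% of all genes) and none rose (median −0.42). The falls were led by Ccl21, followed by Ccl6 (−2.81), Ccl11 (−1.81) and Cxcl10 (−1.44). The Ccl11 call was lost for Ccl11 without cancer 2, 4 or 5 or normal tissue 1, 2 or 3 (adjusted p = 0.0558 to 0.136).

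Mast cell genes were the exception among immune markers and split the cancers. The mean over 12 measured mast cell genes was 11.36, 9.87, 10.25, 8.02 and 8.14 in cancers 1 to 5 and 8.002, 7.76 and 7.98 in normal tissues 1 to 3. Cancers 1, 2 and 3 lay well above all normal tissues, and cancers 4 and 5 lay close to them. Tpsab1, the tryptase of mast cell granules, measured 12.10, 11.001, 10.87, 6.31 and 6.57 in cancers 1 to 5 and 6.22, 6.21 and 6.34 in normal tissues 1 to 3. Cancers 1 to 3 were far above every normal tissue, whereas cancers 4 and 5 were close to normal. The carboxypeptidase Cpa3 (12.87, 11.77, 11.76, 8.70 and 9.01), the chymase Cma1 (12.40, 11.06, 10.53, 7.59 and 8.67) and the IgE receptor genes Fcer1a (10.56, 9.15, 9.47, 6.66 and 6.98) and Ms4a2 (10.41, 8.51, 9.06, 6.63 and 7.13) showed the same division in cancers 1 to 5. So did the granule proteases Mcpt1 (10.77, 9.63, 9.10, 6.02 and 5.94) and Tpsb2 (12.61, 10.52, 11.20, 8.80 and 9.11), the latter a close copy of Tpsab1 whose signal may be shared with it. Of the list 2 genes passed the test (16.7%, beside 15.2% of all genes), Mcpt10 and the granule proteoglycan Srgn (1.04 ± 0.39), though the list median of 1.49 was the highest of the 34 lists. With 1 array left out the count ran from 0 (without cancer 1 or normal tissue 3) to 2 (without cancer 5) and the median from 0.95 to 2.04. With the 8 arrays fitted alone with the replicate block 10 passed, at a median of 2.72. The Srgn call was lost for Srgn without cancer 1, 2, 3 or 4 or normal tissue 1, 2 or 3 (adjusted p = 0.0589 to 0.138). Kit, the mast cell growth receptor that luminal epithelium also carries, was at −0.04 ± 0.56. The remaining members Gata2 (−0.32) and Hdc (0.93) did not pass either. Skeletal muscle genes did not pass (0 of 16), but their mean was 9.43 in cancer 3 and 7.30 to 7.80 in the other 4 cancers.

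**Figure D3:**
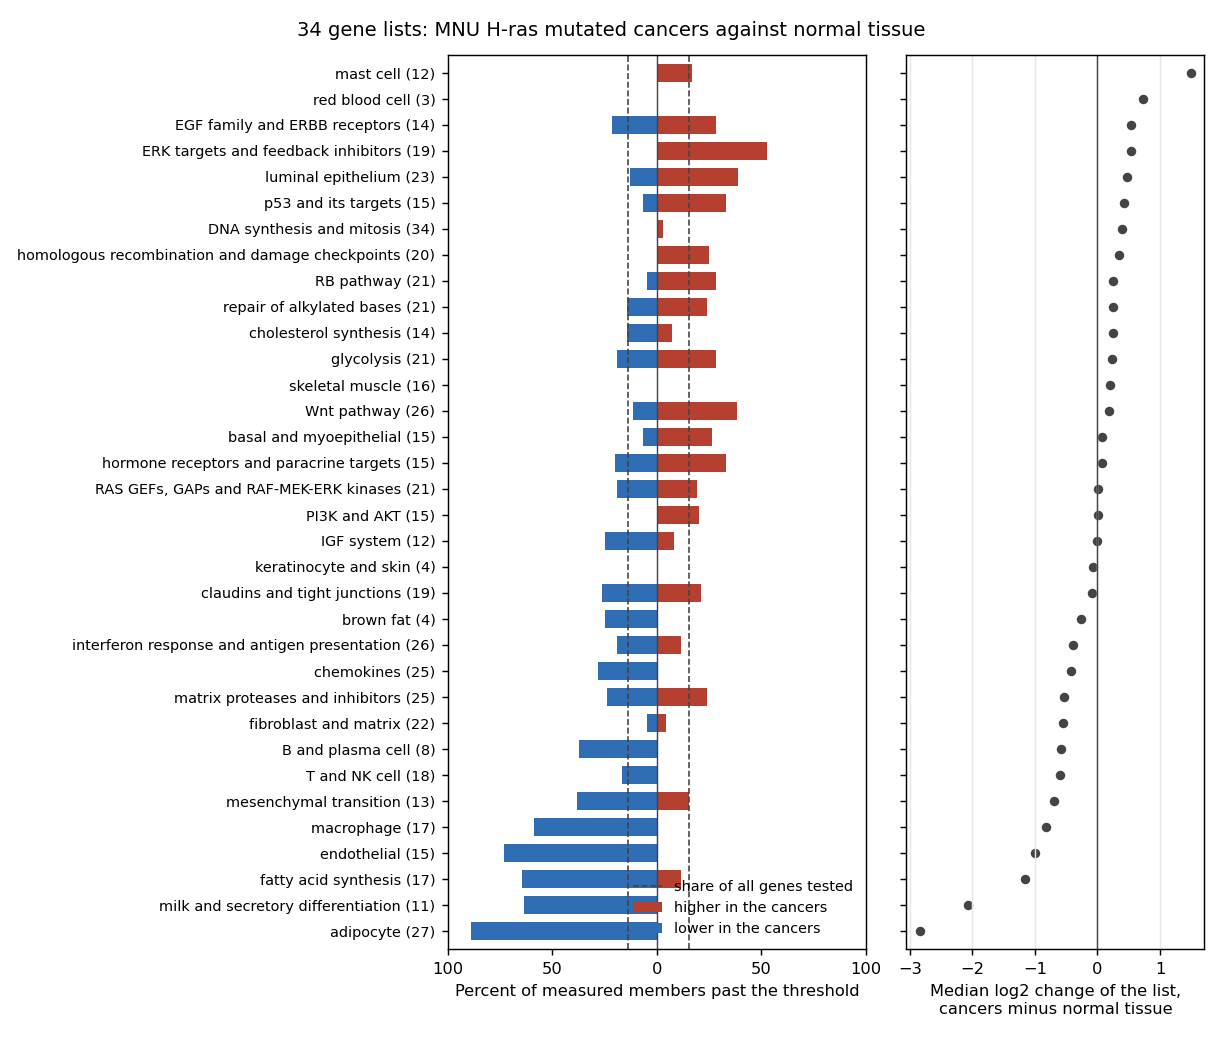
For each of 34 gene lists (measured members in brackets) the left panel shows the percent of members that rose (right of zero) and fell (left of zero) in MNU H-ras mutated cancers against normal tissue, with dashed lines at the shares of all genes (15.2% and 13.9%). The right panel shows the median log2 change; adipocyte genes have the lowest median (−2.84) and mast cell genes the highest (1.49).

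Hardly any division genes passed the test. Of 34 genes of DNA synthesis and mitosis, 1 rose, the replication helicase subunit Mcm2 (0.80 ± 0.30, adjusted p = 0.0473), and none fell, beside 15.2% and 13.9% of all genes, although the list median was 0.39. With the 8 arrays fitted alone 4 rose. The Mcm2 call was lost for Mcm2 without cancer 1, 2 or 3 or normal tissue 1, 2 or 3 (adjusted p = 0.0538 to 0.159). Mki67, the proliferation marker, measured 9.52, 10.09, 9.72, 9.53 and 9.18 in cancers 1 to 5 and 10.13, 9.79 and 8.31 in normal tissues 1 to 3. Normal tissues 1 and 2 were at the level of the cancers and normal tissue 3 was lower, a change of 0.20 ± 0.44. Top2a was at 0.64 ± 0.35 (adjusted p = 0.165). Among the controllers of cell cycle entry a larger share passed, though their median change was smaller (0.26 against 0.39). Of 21 genes of the RB pathway 6 rose (28.6%) and 1 fell (4.8%), beside 15.2% and 13.9% of all genes (median 0.26). The rises ran from 4 (without normal tissue 2) to 8 (without normal tissue 1) when 1 array was left out.

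Inhibitors and activators of the cycle rose side by side. Cdkn2a, which encodes the CDK4 inhibitor p16 and the p53 activator ARF, measured 8.45, 9.51, 8.29, 9.10 and 9.70 in cancers 1 to 5 and 5.95, 6.11 and 5.63 in normal tissues 1 to 3. It was near the added constant in normal tissue and clear of it in every cancer, a change of 3.11 ± 0.62 (adjusted p = 0.000403). Its neighbour Cdkn2b, which encodes p15, rose by 1.75 ± 0.33, and Cdkn1a, which encodes p21, by 1.52 ± 0.35. Cdk4, the kinase these inhibitors bind, rose by 0.45 ± 0.14, and the RB relative Rbl1 by 0.88 ± 0.27. Rb1 itself measured 8.87, 8.57, 9.82, 9.20 and 9.27 in cancers 1 to 5 and 11.05, 10.67 and 11.03 in normal tissues 1 to 3. All cancers lay below all normal tissues, a change of −1.77 ± 0.35 (adjusted p = 0.00034). Ccnd2 varied from 7.45 to 10.99 in the cancers and was at 1.48 ± 0.81. Calls were lost for Cdk4 without normal tissue 2 (adjusted p = 0.0946) and Rbl1 without normal tissue 2 or 3 (adjusted p = 0.0559 to 0.106).

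Targets of p53 rose in part. Of 15 measured 1 fell (6.7%, beside 13.9% of all genes) and 5 rose (33.3%, beside 15.2%), with a median of 0.43. Beside Cdkn1a these were the junction gene Perp (1.497 ± 0.20), the kinase Plk2 (1.45 ± 0.17), the RNA binding protein Zmat3 (0.75 ± 0.14) and the death gene Bbc3 (0.62 ± 0.19), with the last lost for Bbc3 without normal tissue 2 (adjusted p = 0.0535). Gadd45a, a stress gene, fell by 1.11, and Mdm2, the ligase that degrades p53, was at 0.27 ± 0.14.

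Of 21 genes that repair the kind of damage MNU makes, 5 rose (23.8%) and 3 fell (14.3%), beside 15.2% and 13.9% of all genes, with a median of 0.26. The count of falls ran from 0 (without cancer 2 or 4 or normal tissue 2) to 2 (without cancer 1, 3 or 5) with 1 array left out, and was 0 with the 8 arrays fitted alone with the replicate block, where 2 rose. Mgmt, the enzyme that removes methyl groups from guanine directly, measured 7.88, 7.49, 8.14, 7.98 and 8.20 in cancers 1 to 5 and 8.88, 8.96 and 8.33 in normal tissues 1 to 3. The cancers lay below the normal tissues by a narrow margin, a change of −0.79 ± 0.30 (adjusted p = 0.0463). Alkbh2, which reverses other methyl lesions (−0.37), fell, as did the base excision scaffold Xrcc1 (−0.38). The 3 falls were lost for Mgmt without cancer 1, 2 or 4 or normal tissue 1 or 2 (adjusted p = 0.0618 to 0.169), Alkbh2 without cancer 2 or 4 or normal tissue 2 or 3 (adjusted p = 0.0613 to 0.133) and Xrcc1 without cancer 2, 3, 4 or 5 or normal tissue 1, 2 or 3 (adjusted p = 0.0506 to 0.129). Mismatch repair genes Mlh3 and Msh6 rose by 1.12 ± 0.23 and 0.89 ± 0.16. The ligases Lig3 and Lig1 and the nuclease Apex1 rose by 0.56 ± 0.11, 0.53 ± 0.16 and 0.54 ± 0.15, while the second probe sets of Lig1 and Apex1 had changes of opposite sign that did not pass. In homologous recombination 5 of 20 genes rose (25%, beside 15.2% of all genes) and none fell (median 0.35). The rises were Brca2 (0.86), H2ax (0.95), Mre11 (0.93), Rad50 (0.64) and Rad52 (0.55). Without normal tissue 3 none of the 5 passed, and single calls were lost for Brca2 without normal tissue 3 (adjusted p = 0.452, with a change of 0.26 without normal tissue 3), H2ax without cancer 2 or normal tissue 1 or 3 (adjusted p = 0.0625 to 0.115), Mre11 without cancer 2, 3 or 4 or normal tissue 1, 2 or 3 (adjusted p = 0.087 to 0.126), Rad50 without cancer 1 or 2 or normal tissue 1 or 3 (adjusted p = 0.0665 to 0.121) and Rad52 without cancer 3 or normal tissue 2 or 3 (adjusted p = 0.0661 to 0.125).

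Wnt genes moved in both directions, with more rises. Of 26 measured, 10 rose (38.5%) and 3 fell (11.5%), beside 15.2% and 13.9% of all genes (median 0.19). The rises ran from 7 (without normal tissue 2) to 10 (without cancer 5) when 1 array was left out. Lef1, a transcription factor that carries the signal, measured 10.002, 10.32, 10.08, 10.81 and 10.56 in cancers 1 to 5 and 7.30, 7.19 and 8.09 in normal tissues 1 to 3, a change of 2.83 ± 0.41 (adjusted p = 8.5e-06) with no overlap. The feedback inhibitor Nkd2 rose by 2.12 ± 0.41, the ligands Wnt4, Wnt6 and Wnt5a by 2.53 ± 0.45, 1.43 ± 0.25 and 1.49 ± 0.34, and the secreted antagonist Sfrp2 by 2.15 ± 0.72. Axin2, a common readout of the route, rose by 0.52 ± 0.17. The falls were the receptor Fzd4 (−1.71) and the antagonists Sfrp1 and Wif1 (−0.75 and −0.73). Calls were lost for Sfrp2 without cancer 4 or normal tissue 2 or 3 (adjusted p = 0.0525 to 0.0915), Axin2 without normal tissue 2 (adjusted p = 0.312, with a change of 0.25 without normal tissue 2), Sfrp1 without cancer 1, 3, 4 or 5 or normal tissue 1, 2 or 3 (adjusted p = 0.063 to 0.163) and Wif1 without cancer 1, 2 or 4 or normal tissue 1 or 3 (adjusted p = 0.0814 to 0.164).

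Growth factor carriers of the IGF system changed in opposite directions. Igf1, made largely by fat and stroma in the gland, measured 8.80, 8.83, 9.45, 8.36 and 9.25 in cancers 1 to 5 and 11.70, 10.69 and 11.30 in normal tissues 1 to 3. Every cancer lay below every normal tissue, a change of −2.29 ± 0.41 (adjusted p = 0.000119). The binding protein Igfbp3 measured 10.92, 10.83, 10.72, 10.90 and 11.74 in cancers 1 to 5 and 8.27, 8.32 and 9.35 in normal tissues 1 to 3. Its change was 2.37 ± 0.42 (adjusted p = 0.0001), the 1 rise among 12 measured genes (8.3%, beside 15.2% of all genes). Igfbp6 and Igfbp7 fell (−1.17 and −0.97), with Igfbp6 lost for Igfbp6 without cancer 2 or normal tissue 1 or 3 (adjusted p = 0.088 to 0.104). With Igf1, 3 of the 12 genes fell (25%, beside 13.9% of all genes). The list median was −0.01, with a sign that changed between settings.

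Tight junction genes moved in both directions. Of 19 measured 4 rose (21.1%) and 5 fell (26.3%), beside 15.2% and 13.9% of all genes. The median was −0.09, positive in 1 alternative setting. Cldn6, a claudin of embryonic epithelium, measured 9.31, 9.75, 8.14, 9.67 and 9.16 in cancers 1 to 5 and 6.28, 5.93 and 6.14 in normal tissues 1 to 3, a change of 3.09 ± 0.36 (adjusted p = 3.09e-07) with no overlap. With Cldn7, Cldn18 rose by 1.22 ± 0.37 and the scaffold Tjp3 by 0.53 ± 0.18. The falls were Cldn19 (−1.84), Cldn5 (−1.60), Cldn10 (−1.55), Cldn8 (−0.70) and Ocln (−0.69). Calls were lost for Tjp3 without cancer 1, 2 or 5 or normal tissue 2 or 3 (adjusted p = 0.0515 to 0.086), Cldn10 without cancer 1 or normal tissue 2 or 3 (adjusted p = 0.0509 to 0.187) and Ocln without normal tissue 2 or 3 (adjusted p = 0.0605 to 0.0932).

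In glycolysis 6 of 21 genes rose (28.6%, beside 15.2% of all genes) and 4 fell (19.05%, beside 13.9%), with a median of 0.23. Without normal tissue 3 there were 3 rises. The hexokinase Hk1 rose by 0.87 ± 0.17, the phosphofructokinase Pfkm by 0.93 ± 0.16 and Tpi1 by 0.99 ± 0.29. The falls were the lactate transporter Slc16a1 (−2.74 ± 0.54), the regulator Pfkfb3 (−2.31 ± 0.31), Aldoc (−2.01 ± 0.47) and Ldhb (−1.33 ± 0.30). The Tpi1 call was lost for Tpi1 without normal tissue 2 or 3 (adjusted p = 0.0552 to 0.0678). Interferon and antigen presentation genes passed at shares near those of all genes. Of 26, 3 rose (11.5%, beside 15.2%), the proteasome subunit Psmb9 (1.54 ± 0.19) and the peptide transporters Tap2 (0.73) and Tap1 (0.51), and 5 fell (19.2%, beside 13.9%), Mx1 (−1.68), Cxcl10 (−1.44), Ifit2 (−1.40), Ifit3 (−1.20) and B2m (−0.48). The median was −0.39, and calls were lost for Tap2 without normal tissue 1 (adjusted p = 0.063), Tap1 without cancer 4 or normal tissue 2 or 3 (adjusted p = 0.0838 to 0.213), Ifit2 without normal tissue 1 (adjusted p = 0.0504) and B2m without normal tissue 3 (adjusted p = 0.101, with a change of −0.29 without normal tissue 3). A further probe set of Tap1 had a change of opposite sign that did not pass.

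Genes linked to loss of epithelial form passed in both directions. Of 13 measured 5 fell (38.5%) and 2 rose (15.4%), beside 13.9% and 15.2% of all genes, with a median of −0.70. The falls ran from 2 (without normal tissue 1 or 2) to 5 (without cancer 5) with 1 array left out, against 2 rises. The rises were Twist1 (1.46 ± 0.37) and the epithelial Cdh1, and the falls were the filament gene Vim (−0.95 ± 0.23), S100a4 (−1.37) and Zeb1 (−0.70) and the growth factors Tgfb2 (−1.48) and Tgfb3 (−1.36), all of which stromal cells also express. Calls were lost for S100a4 without cancer 3 or 4 or normal tissue 1 or 2 (adjusted p = 0.0568 to 0.185), Zeb1 without cancer 1, 2, 3 or 4 or normal tissue 1, 2 or 3 (adjusted p = 0.075 to 0.156), Tgfb2 without normal tissue 2 (adjusted p = 0.0514) and Tgfb3 without cancer 1 or 2 or normal tissue 1, 2 or 3 (adjusted p = 0.0605 to 0.0977).

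The 5 cancers were not alike in every gene. The median SD of a gene was 0.22 among the cancers and 0.22 among normal tissues, and 159 genes in the cancers and 112 in normal tissue had an SD over 1. The genes described next were picked for their spread, or after their values were seen, so their spread carries no test. The contractile genes Acta1 and Actg2 were high in cancers 1 and 3 (11.73, 5.95, 12.10, 6.99 and 7.29, and 12.61, 7.91, 11.73, 8.64 and 8.28, in cancers 1 to 5), with normal tissue between the high and the low cancers (9.46 to 10.33, and 10.60 to 11.46). The muscle genes Ckm and Myl1 were high in cancer 3 alone (7.12, 7.13, 9.44, 6.78 and 6.81, and 6.53, 6.41, 10.34, 6.61 and 6.70), the array with the high mean of muscle genes. The neural transcription factor Pou3f3 was high only in cancer 3 (6.55, 6.55, 12.41, 5.81 and 6.98), and Igf2, the fetal growth factor, was highest in cancer 2 and next highest in cancer 4 (8.50, 13.25, 7.92, 10.66 and 8.69).

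Other genes were low or high in 1 or a pair of cancers. Rasal1, a GTPase activator that switches RAS off, measured 6.03, 5.91, 8.52, 9.24 and 9.02 in cancers 1 to 5 and 9.34, 8.85 and 9.84 in normal tissues 1 to 3. Cancers 1 and 2 were near the added constant and the other 3 near normal tissue. Fam111a, a nuclear protease gene, was split in both groups (7.92, 11.18, 8.001, 12.04 and 7.94 in the cancers, 12.16, 8.60 and 12.27 in normal tissue). Smim38 ranged from 7.96 to 13.17 in the cancers, and the call of its rise (2.68 ± 0.88) was lost for Smim38 without cancer 1 or 3 or normal tissue 1, 2 or 3 (adjusted p = 0.0518 to 0.0711). Xist, the RNA that silences 1 X chromosome in female cells, measured 10.72, 11.15, 11.09, 11.23 and 6.75 in cancers 1 to 5 and 10.95, 11.18 and 11.13 in normal tissues 1 to 3. Cancer 5 stood far below the other cancers and the normal tissues. All 4 probe sets of Xist were low there, 5.45 to 6.75, below every one of the other 35 arrays, while the Y-linked Eif2s3y was at 5.44 in cancer 5 and at 5.42 to 5.68 elsewhere.

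**Figure D4:**
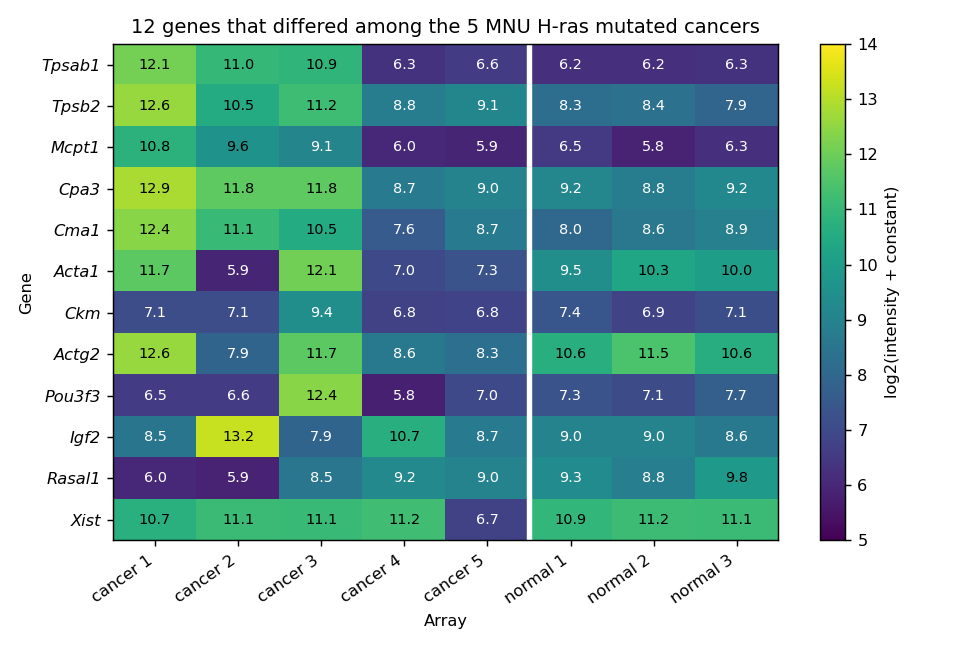
Log2(intensity + constant) of 12 genes (vertical) on the 8 arrays (horizontal), with the value printed in each cell. The mast cell genes (top 5) are high in cancers 1 to 3 only, Acta1 and Actg2 in cancers 1 and 3, Pou3f3 in cancer 3, Igf2 in cancer 2, Rasal1 is low in cancers 1 and 2, and Xist is low in cancer 5.

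Direct contrasts asked whether the changes differ from those in other cancers, in which the normal tissues cancel out. Against the 4 MNU cancers without an H-ras mutation no gene passed (0%; limma, 923 genes with unadjusted p under 0.05, smallest adjusted p = 0.0662). Against the 5 H-ras mutated cancers after radiation and MNU none passed either (0%; 711 genes, smallest adjusted p = 0.726), and against all 28 other cancers none (0%; 1083 genes, smallest adjusted p = 0.107). Of the 40 genes with the largest changes against normal tissue, 8, 5 and 11 had an unadjusted p under 0.05 in these 3 contrasts. Without nonmutated cancer 1 the first contrast gave 7 genes, without MNU H-ras mutated cancer 4 it gave 4 and without cancer 2 it gave 1. The contrast with all other cancers gave 3 without radiation PhIP cancer 4 and 1 without radiation cancer 2. None of the changes above is therefore shown to be particular to these 5 cancers. Nonmutated cancer 4 had a hexokinase ratio of 12.3, so values without it are given beside each difference from the nonmutated cancers.

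The genes nearest the threshold against nonmutated MNU cancers were Prkch, a protein kinase C, Stat5a and Nod1, a bacterial sensor. Prkch measured 11.001, 10.02, 10.82, 9.89 and 10.24 in cancers 1 to 5 and 9.61, 9.35, 9.36 and 9.30 in the 4 nonmutated cancers. The 2 groups did not overlap, and the difference was 0.99 ± 0.20 (unadjusted p = 2.57e-05, adjusted p = 0.0662), or 0.95 without nonmutated cancer 4; the normal tissues lay in between at 10.17 to 10.26. Stat5a measured 10.86, 10.74, 10.90, 11.40 and 10.93 and 11.49, 12.06, 11.67 and 11.84 in the same order, a difference of −0.80 ± 0.16 (unadjusted p = 2.91e-05, adjusted p = 0.0662), or −0.78. Its nonmutated cancers were at the level of normal tissue (11.63 to 12.16). Nod1 differed by 0.64 ± 0.13 (unadjusted p = 3.46e-05, adjusted p = 0.0662), or 0.61.

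Some large changes against normal tissue also stood apart from the nonmutated cancers at an unadjusted p. Tmem150c measured 12.51, 11.69, 12.28, 11.01 and 11.93 in cancers 1 to 5 and 10.27, 8.77, 9.35 and 9.41 in nonmutated cancers, a difference of 2.43 ± 0.51 (unadjusted p = 5.41e-05, adjusted p = 0.0662), or 2.42 without nonmutated cancer 4. In the H-ras mutated cancers after radiation and MNU it measured 12.74, 11.30, 10.30, 11.38 and 11.40, overlapping cancers 1 to 5. The 3 spontaneous cancers, which the labels give as nonmutated, overlapped them too (12.06, 11.24 and 11.95). Scd measured 7.49, 8.05, 8.07, 8.13 and 9.30 in cancers 1 to 5 and 7.93, 12.19, 9.05 and 12.25 in nonmutated cancers, where 2 arrays reached the level of normal tissue and 2 did not. Its difference was −2.15 ± 0.63 (unadjusted p = 0.00184, adjusted p = 0.288), or −1.52 without nonmutated cancer 4. LOC102552398 differed by 2.78 ± 0.67 (unadjusted p = 0.000272, adjusted p = 0.16), Msx2 by 1.92 ± 0.50 (unadjusted p = 0.000667, adjusted p = 0.212) and the luminal factor Gata3 by 0.89 ± 0.19 (unadjusted p = 5.43e-05, adjusted p = 0.0662), or by 3.14, 2.09 and 0.73 without nonmutated cancer 4.

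Other genes had a low unadjusted p and lower values in the H-ras mutated cancers. Fkbp5, a steroid-induced chaperone, measured 8.06, 7.88, 8.17, 8.64 and 8.60 in cancers 1 to 5 and 8.98, 11.69, 9.07 and 11.62 in the nonmutated cancers, against 8.49 to 9.005 in normal tissue. Hpgd, which inactivates prostaglandins, measured 8.58, 6.33, 8.39, 7.65 and 7.47 and 8.32, 11.37, 10.88 and 12.79 in the same order, against 8.21 to 9.91. In both genes 1 or more nonmutated cancers lay close to the H-ras mutated ones. The differences were −2.07 ± 0.44 (unadjusted p = 5.19e-05, adjusted p = 0.0662) and −3.16 ± 0.66 (unadjusted p = 4.86e-05, adjusted p = 0.0662), or −1.64 and −2.51 without nonmutated cancer 4; both genes were chosen after their values were seen. Areg, by contrast, measured 13.11, 13.005, 12.48 and 12.9999 in the nonmutated cancers, a difference of −0.34 ± 0.33 (unadjusted p = 0.313, adjusted p = 0.853), or −0.30 without nonmutated cancer 4. Spry2 differed by −0.65 ± 0.23 (unadjusted p = 0.00768, adjusted p = 0.41), or −0.77, and Cdkn2a, Mmp13, Mmp3 and Prlr differed by −0.53 ± 0.57, 0.37 ± 0.67, 0.45 ± 0.60 and 0.20 ± 0.49, none of them at an unadjusted p under 0.05. Without nonmutated cancer 4 these 4 differences were −0.25, 0.12, 0.22 and −0.35, each moved by over 1.5 times and with the sign of Prlr turned.

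Between the H-ras mutated cancers without and with radiation the genes with the smallest p were Snapc4, a subunit of a small nuclear RNA transcription complex (0.47 ± 0.12, unadjusted p = 0.000294, adjusted p = 0.726), C10h17orf58 (0.64 ± 0.16, unadjusted p = 0.000329, adjusted p = 0.726) and Cntnap2, a neurexin-like adhesion gene (0.69 ± 0.17, unadjusted p = 0.000342, adjusted p = 0.726). Cntnap2 measured 8.80, 7.85, 7.78, 7.79 and 7.98 in cancers 1 to 5 and 7.37, 7.27, 7.16, 7.92 and 7.05 in those after radiation and MNU. Against all other cancers the smallest p-values belonged to Cntnap2 (0.65 ± 0.13, unadjusted p = 2.73e-05, adjusted p = 0.107), Slc19a2, a thiamine transporter (0.77 ± 0.15, unadjusted p = 2.01e-05, adjusted p = 0.107), and Phgdh, the entry enzyme of serine synthesis (−1.08 ± 0.21, unadjusted p = 1.99e-05, adjusted p = 0.107). Phgdh measured 7.70, 8.28, 8.13, 8.41 and 8.67 in cancers 1 to 5 and 10.10, 10.49 and 10.09 in normal tissues 1 to 3, fell against normal tissue (−1.99, adjusted p = 3.36e-05), and lay at 8.96, 10.06, 9.34 and 9.78 in the nonmutated MNU cancers. Slc19a2 measured 11.52, 10.42, 10.38, 10.44 and 10.29 in cancers 1 to 5 and 9.20, 9.29 and 9.33 in normal tissues 1 to 3, highest in cancer 1, and rose against normal tissue by 1.33 (adjusted p = 6.88e-05).

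**Figure D5:**
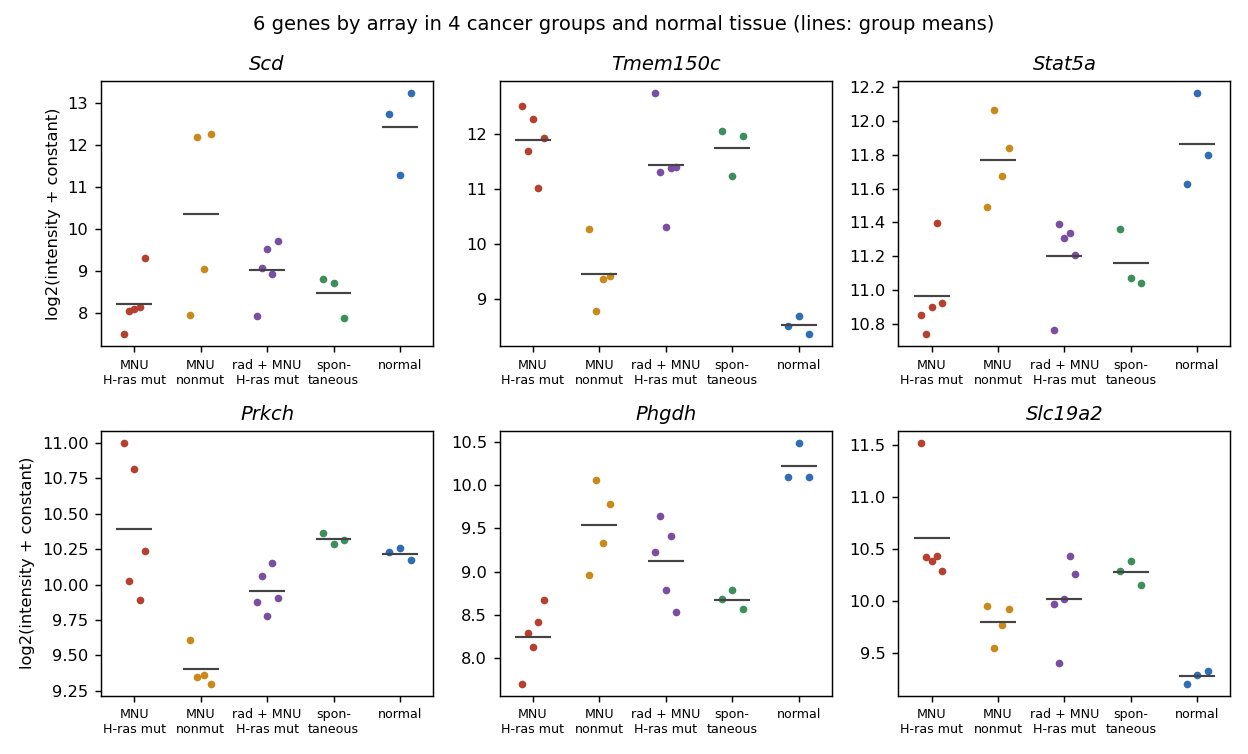
Log2(intensity + constant) of 6 genes on each array of the MNU H-ras mutated cancers, the MNU nonmutated cancers, the H-ras mutated cancers after radiation and MNU, the spontaneous cancers and normal tissue; lines are group means. Tmem150c is low in the MNU nonmutated cancers and high in the other 3 cancer groups, and Stat5a is high in the MNU nonmutated cancers; none of the differences between cancers passed after adjustment.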

How the data were processed

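RNA of 36 rat mammary tissues was measured on single-colour oligonucleotide arrays of 31099 probe sets. Each deposited column holds 1 intensity per probe set on a linear scale, which the authors had scaled so that the 2%-trimmed mean of every array is 500, as found from the values; how they summarised probes is not given in the labels or files used here. A constant of 42.8 (the 20th percentile of all intensities) was added before log2, and genes above 125.8 (the 40th percentile) on at least 3 arrays were kept. Probe sets carry the platform's gene symbols: 20832 have 1 symbol, 436 several and 9831 none, and only the first were named, with the probe set of highest mean for each of 11772 genes. A model of group means over all 36 arrays was fitted with limma 3.58.1 in R 4.3.3, with Benjamini-Hochberg adjustment over all genes, after the fit was tested on simulated data. The number of arrays limits the precision, and the groups differ in no batch that the labels name.

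The gene groups and the lists (34 lists, 673 genes, 568 measured, 105 not analysed here) were chosen with earlier results of these data known. Named genes are the 20 largest rises and 20 largest falls without overlap, the members of each list that rank first by adjusted p (4 at most), the 3 genes with the smallest p in each contrast between cancers and the 10 with the highest SD among the cancers; not all are printed. Where 5 or fewer members of a list passed in a direction all are named, and these and other list members outside the rule were chosen after their values were seen. Alternatives were the added constant, the filter, quantile normalization, the mean of probe sets, an intensity trend with a robust prior, the 8 arrays alone, a replicate block, and each array left out. After the data were seen, a covariate for the hexokinase ratio and the removal of cancer 1 with normal tissue 3 were added. Deviations of arrays with the same replicate number in both groups correlated at 0.14, 0.05 and −0.07, so the numbers were not taken as pairs. Promoter sequences of 33469 starts came from RefSeq (GRCr8), and shares over gene sets used genes with 1 start.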

Additional observations from a re-analysis of the deposited data

Results flagged for a closer look

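Among the 5 cancers, 31 of 289 gene values and list means examined had 1 cancer far from the other 4 (its gap to the nearest was a large part of the whole range, beyond Dixon's critical value), which is 10.7%. Chance alone sets apart about 1 in 20 groups, but the genes examined include some picked for their spread among these cancers or after their values were seen, so the share is no test. Cancer 1 lay above the other 4 in Cntnap2 (8.80 against 7.78 to 7.98), Krt15 (12.51 against 11.67 to 11.91), Mlh3 (9.23 against 8.37 to 8.55), Msx2 (11.002 against 9.20 to 9.66) and Slc19a2 (11.52 against 10.29 to 10.44). Cancer 1 lay below the other 4 in Cd8a (6.03 against 6.78 to 7.001), the ERK phosphatase Dusp6 (9.53 against 12.16 to 13.07) and Etv5 (9.61 against 10.22 to 10.47). Cancer 2 lay above the other 4 in the cartilage collagen Col2a1 (12.74 against 10.79 to 10.98) and the sterol enzyme Sqle (10.88 against 9.22 to 9.68). Cancer 2 lay below the other 4 in Ccl6 (6.24 against 7.89 to 8.56). Cancer 3 lay above the other 4 in the lymphoid chemokine Ccl21 (8.66 against 5.81 to 6.14), Ckm (9.44 against 6.78 to 7.13), Myl1 (10.34 against 6.41 to 6.70), Pou3f3 (12.41 against 5.81 to 6.98), Prag1 (11.66 against 11.15 to 11.28) and the mean of skeletal muscle genes (9.43 against 7.30 to 7.80). Cancer 3 lay below the other 4 in Csn1s1 (12.66 against 13.29 to 13.53), the casein Csn2 (8.98 against 13.25 to 13.60) and the whey protein Wap (7.97 against 10.69 to 11.59). Cancer 4 lay above the other 4 in the prolactin relay Stat5a (11.40 against 10.74 to 10.93). Cancer 4 lay below the other 4 in Cidea (8.28 against 8.74 to 8.80) and Gp2 (12.45 against 13.41 to 13.56). Cancer 5 lay above the other 4 in Cldn19 (6.88 against 5.88 to 6.09), the collagen Col3a1 (13.12 against 12.20 to 12.43), Igfbp3 (11.74 against 10.72 to 10.92), the vessel receptor Kdr (9.69 against 8.65 to 8.95), Nrg2 (9.13 against 8.28 to 8.48), Thrsp (12.01 against 10.45 to 10.84) and Zeb1 (9.49 against 8.32 to 8.65). Cancer 5 lay below the other 4 in Xist (6.75 against 10.72 to 11.23). Cancers 1, 3 and 5 held 8, 9 and 8 of these values. Cancer 1 was also the array with the highest hexokinase ratio, and cancer 3 the array with muscle transcripts; their part in these values was not tested.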

How the results depend on the processing

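Against normal tissue, the 3423 genes past the threshold became 1739 when the 8 arrays were fitted alone with the replicate number as a block (1525 shared with the 3423), 2853 when fitted alone without it, and 3291 with the block in all 36 arrays. Every other setting over all 8 arrays gave 3313 to 3768. Leaving out 1 array at a time gave 2494 (without normal tissue 2) to 3279 genes, and leaving out cancer 1 with normal tissue 3 gave 2334. Against MNU nonmutated cancers the count of 0 became 1 with the mean of probe sets and ran from 0 to 7 with 1 array left out. Against all other cancers it ran from 0 to 3, and against the cancers after radiation and MNU it stayed at 0. The block changed none of these counts of 0, and 11 of 212 named calls against normal tissue were lost with it; 22 were lost with the 8 arrays fitted alone and 49 when the block was added to that fit. In that last fit the RAS regulators had 0 rises and 2 falls, glycolysis 2 rises, claudins 2, p53 targets 3, homologous recombination 2, cholesterol synthesis 3 with 0 falls, and interferon genes 1; the EGF family had 1 fall. Of these 212 calls 147 held with each of the 8 arrays left out in turn, whereas 44 were lost without normal tissue 2 and 46 without normal tissue 3. Quantile normalization ended 16. The 1 called gene to change sign was Tap1, at −0.029 with the mean of probe sets (adjusted p = 0.909). The cause of these shifts was not tested, except that fewer arrays leave fewer degrees of freedom. Changes of genes near the added constant understate the fold.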
